A study of Mus musculus with 8 samples.

Results

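The genes described are 10 transcription factors of fat cell formation and of lipogenic gene expression, namely Pparg, Cebpa, Cebpb, Cebpd, Rxra, Klf15, Ebf1, Srebf1, Mlxipl and Zfp423. They were chosen by symbol, and every array probe whose accession maps to one of these symbols was taken, which gave 14 probes of 55681 that are not controls. All 10 genes were measured, among 25141 gene names tested. White adipose tissue was compared between 4 samples of Ad/NICD mice and 4 samples of wild type (WT) mice, all of strain 129 × C57BL/6, 5 weeks old and fed regular chow. Ad/NICD mice overexpress the intracellular domain of Notch1, the part of the receptor that enters the nucleus and switches on Notch target genes. The labels do not name the promoter behind the transgene, the fat depot or the sex of the mice. In published work, mice of this name express the domain in adipocytes through a Cre driven by the adiponectin promoter, so that the other cells of the depot would not carry the active transgene. The labels call the samples biological replicates without saying that each is a separate mouse, and p-values measure the spread between these samples.

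Each of the 4 arrays carried 1 Ad/NICD and 1 WT sample with the same replicate number, in 2 colours, and no array had its dyes swapped. Values are given for red (Cy5) as Ad/NICD and green (Cy3) as WT, the likely direction, because the deposited value table has it so. The samples' own dye tags name the other dye for each genotype. If the tags were right, every sign would turn and the levels of the groups would change places, while sizes and p-values would stay. With 1 dye per genotype, probe-specific dye effects and genotype cannot be told apart. Median foreground was 34 to 43.5 intensity units in the red channel and 72 to 88.5 in the green one, and precision is limited by there being 4 arrays. Probes of Y-linked genes were above background mainly on the array of replicate 4, with 5 of 5 in the Ad/NICD sample and 3 of 5 in the WT sample, against 0 or 1 of 5 in the other samples. Xist, the RNA of the inactive X chromosome, had log2 signals of 10.14, 10.21, 10.45 and 5.91 in Ad/NICD replicates 1 to 4, against 10.19, 10.27, 10.25 and 6.16 in WT replicates 1 to 4, so both samples of replicate 4 stood apart. The Notch target Heyl had a log2 ratio of 2.87 (adjusted p = 0.0399 in limma). The other 4 Notch targets examined did not pass, with Notch3 at 0.73, Nrarp at 0.44, Hes1 at 0.26 and Hey1 at -0.20.

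Fat cells form through a relay of transcription factors. CCAAT/enhancer-binding proteins beta and delta (Cebpb, Cebpd) come on early after a hormonal stimulus and turn on PPAR gamma (Pparg), a nuclear receptor that binds DNA as a pair with a retinoid X receptor such as Rxra. PPAR gamma and C/EBP alpha (Cebpa) then raise each other's expression and together drive the genes of the mature adipocyte, with C/EBP alpha needed for insulin-sensitive white fat. EBF1 and ZFP423 act in progenitors and in commitment, KLF15 acts in differentiation and in glucose and amino acid metabolism, and SREBP1 (Srebf1) and ChREBP (Mlxipl) switch on fatty acid synthesis in response to insulin and glucose.

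The bases upstream of the transcription starts of Cebpa, Pparg and Mlxipl are shown, because the first pair differed in their ratios and because the probes of Mlxipl differed from each other. The sequences are from RefSeq (GRCm38.p6), each 250 bases that end at the base before an annotated start, 5′ to 3′. All 6 lie on the plus strand. RefSeq windows were found for 9 of the 10 genes, 17 windows in all. Capitals mark matches on either strand to the RBPJ core TGGGAA, bound by the DNA-binding partner of the Notch intracellular domain, to the C/EBP motif TTGCNNAA, to the nuclear receptor hexamer AGGTCA, to the E-box CACGTG and to the TATA box TATAAA. No matches overlap in these windows.
Cebpa, chr7:35119043-35119292: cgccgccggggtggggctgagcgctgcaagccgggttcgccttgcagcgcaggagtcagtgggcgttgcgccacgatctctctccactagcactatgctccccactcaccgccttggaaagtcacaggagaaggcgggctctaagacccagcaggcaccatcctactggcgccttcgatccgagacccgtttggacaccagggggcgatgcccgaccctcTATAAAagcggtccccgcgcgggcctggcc
Pparg, chr6:115360894-115361143: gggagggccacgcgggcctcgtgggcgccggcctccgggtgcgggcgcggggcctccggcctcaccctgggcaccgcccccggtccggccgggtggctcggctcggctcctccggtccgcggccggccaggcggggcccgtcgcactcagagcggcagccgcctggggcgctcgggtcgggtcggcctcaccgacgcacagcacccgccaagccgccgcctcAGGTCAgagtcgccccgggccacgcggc
Pparg, chr6:115362099-115362348: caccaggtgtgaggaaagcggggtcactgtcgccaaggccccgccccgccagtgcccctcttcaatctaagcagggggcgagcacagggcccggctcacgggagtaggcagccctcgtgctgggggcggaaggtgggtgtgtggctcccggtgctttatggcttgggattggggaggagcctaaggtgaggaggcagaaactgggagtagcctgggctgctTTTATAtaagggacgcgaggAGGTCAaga
Pparg, chr6:115421816-115422065: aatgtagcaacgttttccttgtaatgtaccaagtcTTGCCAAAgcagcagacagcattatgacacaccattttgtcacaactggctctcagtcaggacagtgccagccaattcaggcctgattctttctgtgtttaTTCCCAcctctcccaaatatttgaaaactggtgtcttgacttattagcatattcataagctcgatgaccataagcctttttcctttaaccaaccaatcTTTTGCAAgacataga
Mlxipl, chr5:135089640-135089889: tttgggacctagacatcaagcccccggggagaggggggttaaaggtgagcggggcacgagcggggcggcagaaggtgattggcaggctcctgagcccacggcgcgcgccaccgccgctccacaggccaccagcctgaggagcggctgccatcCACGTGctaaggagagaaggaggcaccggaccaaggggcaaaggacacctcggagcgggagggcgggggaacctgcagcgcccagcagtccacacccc
Mlxipl, chr5:135106641-135106890: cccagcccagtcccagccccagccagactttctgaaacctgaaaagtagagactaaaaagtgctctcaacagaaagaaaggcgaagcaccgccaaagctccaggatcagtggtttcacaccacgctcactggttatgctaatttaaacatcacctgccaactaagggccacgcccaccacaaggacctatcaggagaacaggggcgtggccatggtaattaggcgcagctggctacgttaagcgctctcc

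In these windows the Cebpa sequence held 1 match, a TATA box whose first base lies 30 bases before the start. The Pparg window farthest downstream held an RBPJ core that begins 114 bases before the start and 2 C/EBP motifs that begin 215 and 16 bases before it. The 2 windows of Pparg farther upstream each held 1 nuclear receptor hexamer, 28 and 9 bases before their starts, and the second of them also held a TATA box at 29 bases. Of the Mlxipl windows, the upstream one held 1 E-box, 98 bases before its start, and the downstream one held no match to these letters. The RBPJ core was found in 21.6% of all 32851 RefSeq windows of this length and in 6 of the 17 windows of the 10 genes. The C/EBP motif was found in 9.56% of all windows and 2 of the 17, and the nuclear receptor hexamer in 14.02% and 4 of the 17. The E-box was found in 6.02% and 2 of the 17, and the TATA box in 12.4% and 2 of the 17. Some genes hold several of the 17 windows, and no motif was tested for an excess. A match is a description of the letters and shows no binding.

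Of the 10 factors, Cebpa, Rxra and the brighter Mlxipl probe were lower in Ad/NICD fat on 4 of 4 arrays, and Pparg stayed near its WT level on average. None of the 10 passed an adjusted p of 0.05 in the paired ratio fit (limma), which passed 0.0477% of all gene names, 0.0199% as lower and 0.0278% as higher. At an unadjusted p under 0.05 there were 4 of the 10, namely Rxra, Cebpa, Mlxipl and Zfp423, against 15.2% of all gene names. When the array was a random block, 1 of the 10 passed, Rxra, which was lower. That fit passed 1.98% of all gene names, 1.13% as lower and 0.855% as higher. With no replicate block Rxra alone passed again, against 1.04% of all gene names. The 3 genes below 0 on 4 of 4 arrays compare with 13.3% of all gene names, and 0 of the 10 were above 0 on 4 of 4 arrays, against 11.2%. The mean ratio was below 0 for 8 of the 10, with a median of -0.20, while 51.6% of all gene names were below 0, with a median of -0.0059. Without replicate 4 none of the 10 passed, and the mean ratios were -1.10 for Cebpa, 0.061 for Pparg, -0.51 for Rxra, -0.84 for Mlxipl, -0.079 for Cebpb, -0.34 for Cebpd, -0.078 for Srebf1, -0.53 for Klf15, 0.20 for Zfp423 and -0.23 for Ebf1.

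**Figure D1:**
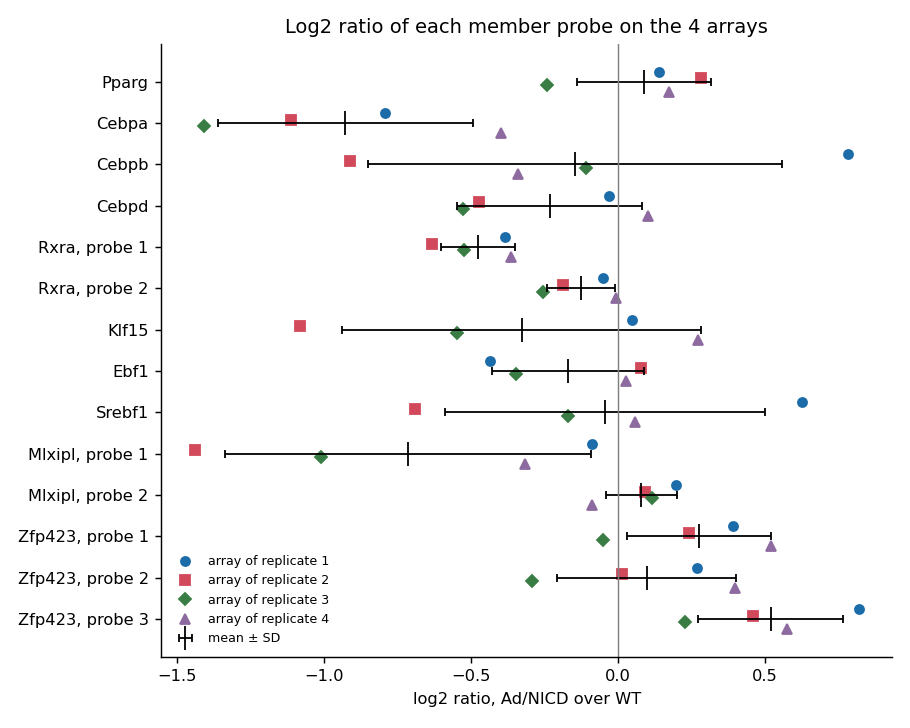
Log2 ratio (Ad/NICD over WT, horizontal axis) of each of the 14 probes of the 10 genes, with 1 point per array and the mean ± SD as a bar (n = 4 arrays); probe 1 is the brightest probe of a gene. Cebpa lies between -1.41 and -0.40, Pparg between -0.24 and 0.28, and the brightest and the next probe of Mlxipl separate at means of -0.71 and 0.080.

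Cebpa had log2 signals of 11.49, 11.503, 11.05 and 12.24 in Ad/NICD replicates 1 to 4, against 12.28, 12.61, 12.46 and 12.64 in WT replicates 1 to 4. All Ad/NICD samples lay below all WT samples, with Ad/NICD replicate 4 the closest to WT. Levels that did not overlap and were lower in Ad/NICD were found for 3 of the 10 genes and for 5.54% of all gene names, and levels higher without overlap for 0 of the 10 and for 4.27%. The log2 ratios of Cebpa on the 4 arrays were -0.79, -1.11, -1.41 and -0.40. Their mean was -0.93 ± 0.17 (SE, n = 4 arrays), 0.53 times the WT level, with a 95% confidence interval of -1.36 to -0.49. The adjusted p was 0.136 for the ratios, 0.0627 when the array was a random block and 0.105 with no replicate block, so Cebpa did not pass in any of these limma fits. Its ratio ran from -1.37 to -0.76 over 14 alternative settings and was below 0 in all of them. Several of these settings change only the test or the choice of probes, and they leave the ratio of Cebpa as it was.

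Pparg, the nuclear receptor without which fat cells do not form, had log2 signals of 12.50, 12.87, 12.24 and 12.71 in Ad/NICD replicates 1 to 4, against 12.36, 12.59, 12.48 and 12.53 in WT replicates 1 to 4. The groups overlapped, and Ad/NICD replicate 3 was the lowest of the 8 samples. The ratios were 0.14, 0.28, -0.24 and 0.18, with a mean of 0.09 ± 0.10 (SE, n = 4 arrays; adjusted p = 0.727 in limma). The 95% confidence interval of -0.17 to 0.35 bounds what these arrays could have missed. The sign turned with the scaling, and the mean was -0.32 when arrays were median-centred in place of loess. That setting took the median of all gene names to -0.32, and relative to it Pparg was at 0.0016 and Cebpa at -1.05. Without the array of replicate 1, 2 or 3, Pparg had 0.072, 0.025 and 0.20.

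The difference between the 2 genes, the log2 ratio of Cebpa minus that of Pparg, was -0.93, -1.39, -1.17 and -0.57 on the 4 arrays. It averaged -1.01 ± 0.35 (SD, n = 4) and was below 0 on 4 of 4 arrays. The difference ran from -1.16 to -0.89 over 11 settings, some of which leave the ratios of both genes unchanged. The pair was singled out with earlier results of these data known, so the difference is given as a description with no test.

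**Figure D2:**
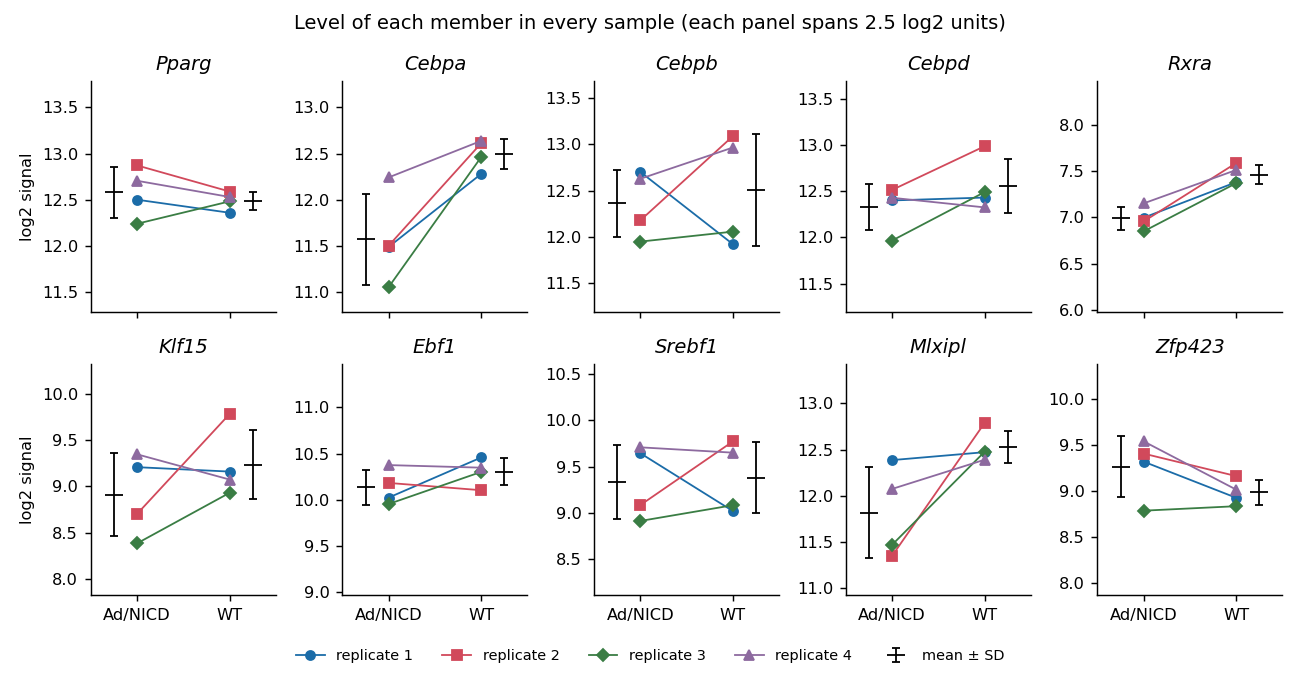
Log2 signal of each gene (vertical axis, its brightest probe) in the 4 Ad/NICD samples on the left and the 4 WT samples on the right of each panel, with a line joining the samples of an array and bars for the mean ± SD (n = 4). The Ad/NICD samples of Cebpa, Rxra and Mlxipl lie below every WT sample, and those of the other 7 genes overlap with WT.

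Rxra, the partner with which PPAR gamma binds DNA, was measured by 2 dim probes. The brighter probe had log2 signals of 6.997, 6.956, 6.85 and 7.15 in Ad/NICD replicates 1 to 4, against 7.38, 7.59, 7.37 and 7.51 in WT replicates 1 to 4. The groups did not overlap, and the spread within each was small, with means of 6.99 ± 0.13 in Ad/NICD and 7.46 ± 0.11 in WT (SD, n = 4). The ratios of -0.38, -0.63, -0.52 and -0.36 had a mean of -0.47 ± 0.073 (SE). In limma, the adjusted p was 0.127 for the ratios, 0.0255 when the array was a random block and 0.0467 with no replicate block. The other probe had ratios of -0.051, -0.19, -0.25 and -0.0053, with a mean of -0.12, and the mean over both probes gave -0.30 (adjusted p = 0.18). The offset of 50 added in the background correction pulls ratios of dim probes toward 0: with an offset of 10 the brighter probe had -0.66 (adjusted p = 0.114 in limma). With the scanner's processed signals, which replace that background correction, the brighter probe had -0.76 (adjusted p = 0.173 in limma). Neither passed.

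Mlxipl encodes ChREBP, the glucose-responsive activator of lipogenic genes, and its 2 probes did not agree. On the brighter probe the log2 signals were 12.39, 11.35, 11.47 and 12.07 in Ad/NICD replicates 1 to 4, against 12.47, 12.79, 12.48 and 12.39 in WT replicates 1 to 4. All Ad/NICD samples were below all WT samples, but Ad/NICD replicate 1 lay just under WT replicate 4. The ratios of -0.09, -1.44, -1.01 and -0.32 had a mean of -0.71 ± 0.24 (SE; adjusted p = 0.273 in limma), and it was -0.47 without replicate 2. The other probe had ratios of 0.20, 0.093, 0.12 and -0.089, with a mean of 0.080. The brighter minus the dimmer probe was below 0 on 4 of 4 arrays, with a mean of -0.79 ± 0.64 (SD, n = 4), given with no test because the probes were compared after they were seen to differ. Both probes carry the same accession, and RefSeq places starts of this gene at the 2 windows shown above. The transcripts that each probe reads were not analysed here. The mean over both probes was -0.32.

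The early factors Cebpb and Cebpd each had a mean ratio below 0 that did not pass, and each was below 0 on 3 of 4 arrays. Cebpb had log2 signals of 12.70, 12.18, 11.95 and 12.63 in Ad/NICD replicates 1 to 4, against 11.92, 13.09, 12.06 and 12.97 in WT replicates 1 to 4. Its ratios were 0.78, -0.91, -0.11 and -0.34, with opposite signs on the arrays of replicates 1 and 2, and the mean was -0.14 ± 0.27 (SE; adjusted p = 0.841 in limma). Without replicate 2 that mean was 0.11. Cebpd had 12.40, 12.51, 11.97 and 12.43 in Ad/NICD replicates 1 to 4, against 12.43, 12.99, 12.49 and 12.33 in WT replicates 1 to 4. Its mean ratio was -0.23 ± 0.13 (SE; adjusted p = 0.469), with a 95% confidence interval of -0.56 to 0.10. That mean was -0.15 without replicate 2, -0.13 without replicate 3 and -0.64 with median centring. Relative to the median of all gene names in the median-centred setting, Cebpd was at -0.33.

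Srebf1, which encodes the insulin-responsive lipogenic factor SREBP1, differed in sign among the arrays. Its ratios were 0.63, -0.69, -0.17 and 0.06, and the mean was -0.04 ± 0.21 (SE; adjusted p = 0.946 in limma). Log2 signals were 9.64, 9.08, 8.91 and 9.71 in Ad/NICD replicates 1 to 4, against 9.02, 9.77, 9.08 and 9.65 in WT replicates 1 to 4. The mean was above 0 without replicate 2 (0.17), with processed signals (0.016) and in the deposited value table (0.0064). Klf15, a Krüppel-like factor induced during fat cell formation, had ratios of 0.05, -1.08, -0.55 and 0.27 and a mean of -0.33 ± 0.24 (SE; adjusted p = 0.573). Its log2 signals were 9.21, 8.70, 8.38 and 9.35 in Ad/NICD replicates 1 to 4, against 9.16, 9.78, 8.93 and 9.08 in WT replicates 1 to 4. Without replicate 2 the Klf15 mean was -0.075, and WT replicate 2 was the highest of the 8 samples. Cebpb, Srebf1, Klf15, Mlxipl and Rxra, each on its brightest probe, had their lowest ratio on the array of replicate 2.

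Zfp423, a zinc finger factor of committed preadipocytes that also holds back thermogenic genes in white fat, was measured by 3 probes. The brightest had log2 signals of 9.32, 9.41, 8.79 and 9.54 in Ad/NICD replicates 1 to 4, against 8.93, 9.16, 8.84 and 9.02 in WT replicates 1 to 4. Replicates 1, 2 and 4 had the higher signal in Ad/NICD, and the ratio averaged 0.28 ± 0.11 (SE; adjusted p = 0.321 in limma). The other probes had means of 0.098 and 0.52, and the last of these was above 0 on every array, from 0.23 to 0.82. With median centring the brightest probe had -0.21, which is 0.10 above the median of all gene names in that setting. Ebf1 had log2 signals of 10.02, 10.18, 9.95 and 10.38 in Ad/NICD replicates 1 to 4, against 10.46, 10.10, 10.30 and 10.35 in WT replicates 1 to 4. Its ratios of -0.43, 0.08, -0.35 and 0.03 had a mean of -0.17 ± 0.11 (SE; adjusted p = 0.538). The mean was -0.080 without replicate 1, -0.11 without replicate 3 and -0.68 with median centring. Relative to the median of all gene names in the median-centred setting, Ebf1 was at -0.36. EBF1 is also a defining factor of B cells, and the 8 of 10 B cell markers measured had array medians of -0.53, 0.16, -0.42 and -0.42. The summed log2 level of those markers was 13.87 to 14.27 in Ad/NICD and 14.10 to 14.81 in WT, none was below background in every sample of a group, and their part in the Ebf1 values was not tested.

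Partners and paralogs of these factors were lower more often than higher, with 10 of 15 below 0, a median of -0.15 and 0 past the threshold in the ratio fit (5 at an unadjusted p under 0.05). Without replicate 4 the median was -0.25. Of all gene names, 15.2% had an unadjusted p under 0.05 in the ratio fit, and 1.13% passed as lower with the array as a random block. These shares also stand beside the counts of each list below. With the random block 2 of the 15 passed, both lower. These were Rxrb, another retinoid X receptor, with ratios of -0.15, -0.46, -0.28 and -0.33 (adjusted p = 0.0483), and Scap, the escort protein that SREBPs need for their activation, with -0.46, -0.39, -0.35 and -0.20 (adjusted p = 0.0483). Neither passed with no replicate block (adjusted p = 0.0731 and 0.0827). The third retinoid X receptor, Rxrg, had ratios of -0.48, -1.16, -1.16 and -0.48 (adjusted p = 0.139 in the ratio fit). All 3 receptors of this family were below 0 on 4 of 4 arrays, as were 13.3% of all gene names. The dimmer Rxra probe was only at -0.051 and -0.0053 on the arrays of replicates 1 and 4, and the family was not tested as a set. Mlx, the obligate partner of ChREBP, had a mean of -0.10 ± 0.085 (SE), and Ebf2, a paralog of Ebf1 linked to brown fat, had 0.25 ± 0.13 (SE).

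Other activators of fat cell formation had a median of 0.048, below 0 in 2 of 11 settings, with 12 of 20 above 0 and 0 past the threshold in the ratio fit (5 at an unadjusted p under 0.05). With the array as a random block 2 were lower, and both passed with no replicate block too. Zfp467, a zinc finger factor that favours fat over bone cell fate, had ratios of -0.48, -0.93, -0.75 and -0.33 (adjusted p = 0.0295 with the random block and 0.0464 without a block). Nr1h2, the liver X receptor beta, a partner of retinoid X receptors that induces Srebf1, had ratios of -0.45, -0.41, -0.43 and -0.27 (adjusted p = 0.026 and 0.0492). Nfib, a nuclear factor I protein, had a mean of 0.36 ± 0.10 (SE; adjusted p = 0.213 in the ratio fit). Of 19 repressors measured, 12 were below 0, with a median of -0.068 (-0.075 to -0.029 without 1 array). With median centring the repressor median was -0.55 and the median of all gene names -0.32. Of the repressors, 0 passed in the ratio fit (5 at an unadjusted p under 0.05) or with the random block. The 3 with the lowest p-values were Irf3 at -0.33 ± 0.082, Irf4, an interferon regulatory factor that restrains fat cell formation, at -0.74 ± 0.19, and the corepressor Ncor1 at -0.23 ± 0.070 (SE). The 14 coactivators had a median of 0.0073, above 0 in 6 of 11 settings, with 0 past the threshold in either fit and 0 at an unadjusted p under 0.05. Lpin1, which is both a coactivator and an enzyme of triglyceride synthesis, had ratios of 0.13, -1.83, -0.75 and -0.33, Ppargc1b had a mean of -0.23 ± 0.12 and Carm1 one of 0.16 ± 0.085 (SE).

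Known targets of PPAR gamma and C/EBP alpha were below 0 in 21 of 24 cases, with a median of -0.64. On 4 of 4 arrays 12 of the 24 were below 0, against 13.3% of all gene names. In the ratio fit 0 passed (15 at an unadjusted p under 0.05, against 15.2% of all gene names), and 3 passed with the random block, all lower. These were Slc27a1, a fatty acid transporter, with ratios of -1.14, -2.14, -1.72 and -1.15 (adjusted p = 0.0156), the beta-3 adrenergic receptor gene Adrb3 with -2.22, -2.21, -2.04 and -1.01 (adjusted p = 0.0392), and the resistin gene Retn with -1.40, -2.61, -2.72 and -0.60 (adjusted p = 0.0477). With no replicate block Slc27a1 passed (adjusted p = 0.0264), while Adrb3 and Retn did not (0.0728 and 0.0712). Members of the list differed. Pck1, of glyceroneogenesis, had a mean of -1.17 ± 0.20, the adiponectin gene Adipoq -0.95 ± 0.30 and the lipid droplet coat gene Plin1 -0.50 ± 0.19 (SE). Fabp4, the fatty acid-binding protein often used as a PPAR gamma target, had ratios of 0.53, -0.28, -0.10 and 0.37 and a mean of 0.13 ± 0.15 (SE).

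Targets of SREBP1 and ChREBP were below 0 in 18 of 21 cases measured, with a median of -0.56 and 0 past the threshold in either fit (4 at an unadjusted p under 0.05 in the ratio fit). The list median was 0.19, -1.49, -0.21 and -0.21 on the 4 arrays, and without replicate 2 the median of mean ratios was -0.054. Fasn, the fatty acid synthase, had ratios of 0.52, -2.94, -0.23 and -0.45, and Acaca, which makes its substrate malonyl-CoA, had 0.47, -2.13, -0.21 and -0.38. In replicate 1 both had the higher signal in Ad/NICD, as did Srebf1, and in replicate 2 all 3 had the lower one. Txnip, a ChREBP target that limits glucose uptake, had -0.72, -0.95, -0.67 and -0.068 (adjusted p = 0.189 in the ratio fit). Gpam had a mean of -0.35 ± 0.098, G6pdx, which supplies NADPH, -0.47 ± 0.14 and the desaturase gene Scd1 -0.20 ± 0.22 (SE).

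**Figure D3:**
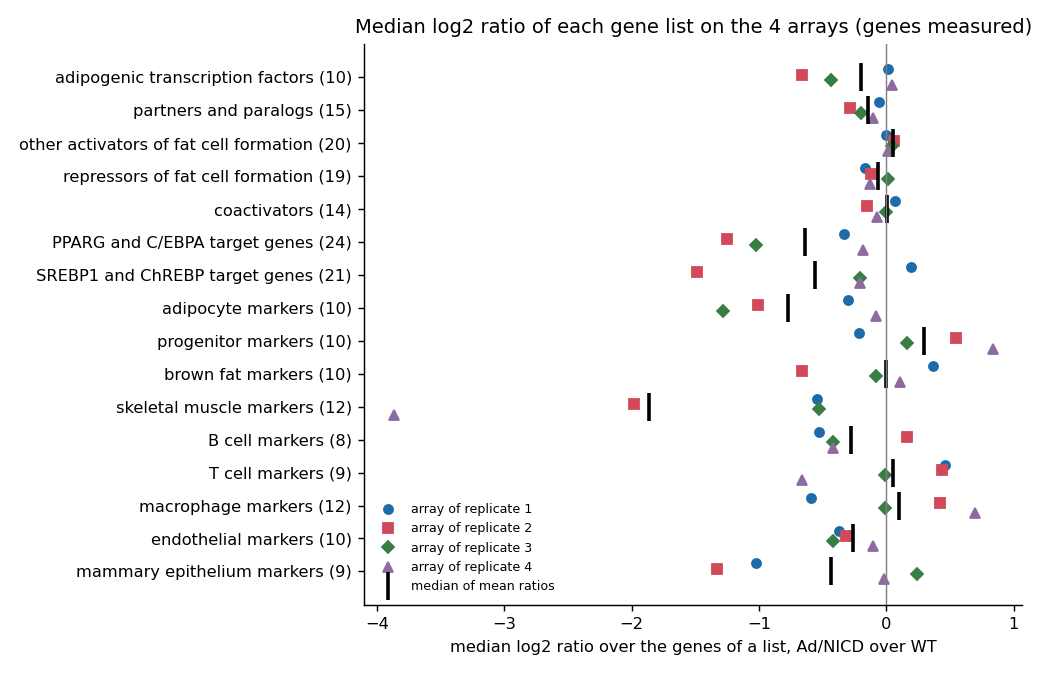
Median log2 ratio (Ad/NICD over WT, horizontal axis) over the measured genes of each list, with 1 point per array and a bar for the median of the mean ratios; the number of genes measured follows each name. Target genes of PPARG and C/EBPA lie at -0.64 and those of SREBP1 and ChREBP at -0.56, and the SREBP1 and ChREBP list is at 0.19 for replicate 1 and -1.49 for replicate 2.

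Values of cell type markers are given beside those of the 10 genes. In the ratio fit 0 of the adipocyte, progenitor, endothelial and skeletal muscle markers passed. At an unadjusted p under 0.05 there were 7, 2, 6 and 8 of them, against 15.2% of all gene names. With the random block 2 adipocyte markers, Retn and Adig (-1.04, adjusted p = 0.0228), and 1 endothelial marker, Cldn5 (-1.21, adjusted p = 0.0313), were lower, and Adig and Cldn5 are named here after their values were seen. All 10 adipocyte markers were measured, 9 of them also in the target list above, and 8 were below 0, with a median of -0.77. Their summed log2 level was 16.94 to 17.82 in Ad/NICD samples and 17.92 to 18.44 in WT samples, and none was below background in every sample of a group. In bulk tissue, fewer adipocytes and less RNA per adipocyte cannot be told apart. The array medians of the adipocyte markers were -0.30, -1.01, -1.28 and -0.09, beside Cebpa ratios of -0.79, -1.11, -1.41 and -0.40. Of 10 progenitor markers, 9 were above 0, with a median of 0.29 and a summed level of 16.52 to 16.94 in Ad/NICD and 15.88 to 16.83 in WT. With median centring, which took the median of all gene names to -0.32, the progenitor median was -0.034. All 10 endothelial markers were below 0, with a median of -0.26 (-0.76 with median centring) and a summed level of 13.91 to 14.38 in Ad/NICD and 14.52 to 14.60 in WT. All 12 skeletal muscle markers were below 0, with a median of -1.86 and a summed level of 10.98 to 13.40 in Ad/NICD and 11.80 to 17.50 in WT. Without replicate 4 the muscle median was -0.98 and the progenitor median 0.048, and the progenitor median was 0.49 without replicate 1 and 0.17 without replicate 2. Muscle also expresses Klf15 and Srebf1. The part of these cell types in the values of the 10 genes was not tested.

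The 3 genes with ratios most like those of Cebpa, by the mean absolute difference over the 4 arrays among 15840 other genes with a RefSeq symbol, were Prodh (0.0825), which encodes proline dehydrogenase, the sulfotransferase gene Sult1a1 (0.0844) and Slc25a10 (0.104), a mitochondrial dicarboxylate carrier. Prodh had ratios of -0.72, -1.02, -1.49 and -0.49. The likeness rests on 4 arrays.

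**Figure D4:**
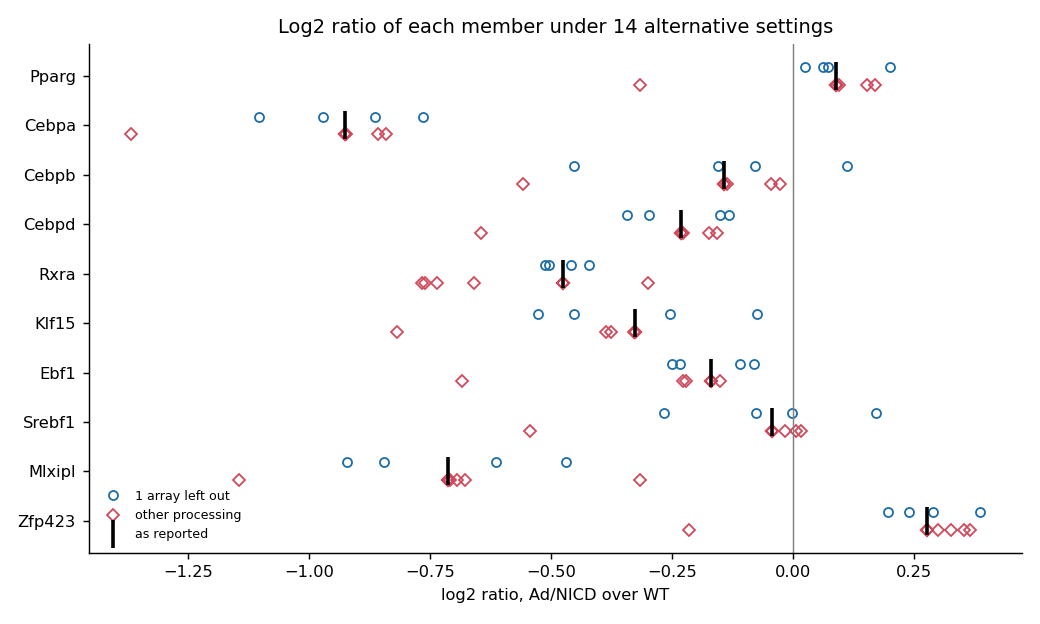
Log2 ratio of each gene (Ad/NICD over WT, horizontal axis) as reported (bar), with 1 array left out (circles) and under other processing (diamonds). Cebpa, Cebpd, Rxra, Klf15, Ebf1 and Mlxipl stayed below 0 in all 14 settings, while Pparg, Cebpb, Srebf1 and Zfp423 crossed 0 in at least 1. Settings that change only the test return the reported ratio.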

How the data were processed

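Gene expression in white adipose tissue of 4 Ad/NICD and 4 WT samples was measured on 4 arrays with 2 colours. Scans were read with Agilent Feature Extraction 11.5, per the submitters' processing notes. The deposited scanner tables give intensity per spot, and a log10 ratio of red over green processed signal. Same-numbered WT and Ad/NICD samples share 1 table. The deposited value table is on a log2 scale, with the upper quartile of every column at 0 and column medians of -3.84 to -3.52. Its WT columns equal the green and its Ad/NICD columns the red processed signal minus a constant, to an SD of at most 0.0912. This was computed only over probes bright in both channels. No step behind it is given in the sources used here.

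Median foreground and background were corrected by normexp (offset 50) and normalised by loess within arrays, controls at weight 0 (limma 3.58.1, R 4.3.3). Probes were named through accessions in a RefSeq table of GRCm38.p6, with 28026 of 55681 matched. They were kept when well above background in a channel on at least 3 arrays. Flags missing for replicate 1 were rebuilt as signal over 6 robust SDs of negative controls. On replicates 2, 3 and 4, which have scanner flags, this rule matched them at 98.3% to 99.99% of spots, by array and channel. For replicate 1 it could not be checked. Each gene was represented by its brightest kept probe. The 4 ratios were tested against 0 with lmFit and eBayes and adjusted by Benjamini-Hochberg over 25141 gene names (threshold 0.05). The fit was tested on simulated data, drawn as independent ratios without array or dye effects, so such effects were not tested. Levels are separate-channel log2 signals after quantile scaling of average brightness. The array is the pair. Deviations of same-numbered samples from their group means correlated at 0.17 to 0.56, though replicate 1 correlated more with another number (0.28 against 0.18). Same-numbered samples share the spots of an array, so these correlations cannot show that the samples were paired in any other way. Genes named from the 6 lists of regulators and targets are those past the threshold in the ratio fit or with the array as a random block, the 3 with the lowest p per list, and 9 fixed names; marker lists are given by counts and levels. The 10 genes, the lists and the rule were chosen with earlier results of these data known.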

Additional observations from a re-analysis of the deposited data

Results flagged for a closer look

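Of 72 groups of 4 values checked, 2 had a value far from the other 3. Chance gives about 1 in 20, a larger share than was found. Adrb3, a target of PPAR gamma and C/EBP alpha, had a log2 ratio of -1.01 on the array of replicate 4, against -2.22 to -2.04 on the other arrays. The B cell markers had a median log2 ratio of 0.16 on the array of replicate 2, against -0.53 to -0.42 on the others.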

How the results depend on the processing

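The count of gene names past the threshold was 12 in the ratio fit, 5 lower and 7 higher. It was 261 with no replicate block (155 lower, 106 higher), 499 with the array as a random replicate block (284 lower, 215 higher), 3 with processed signals, 3 in the deposited value table, 0 with median centring and 0 with no filter on dim probes. Leaving out 1 array gave 0 without replicate 1, 2 or 3 and 43 without replicate 4. Of the 10 transcription factors, 0 were past it in the ratio fit and 1, Rxra, with no replicate block and with the random block; leaving out 1 array gave 0 each time. The blocks changed no other call among the 10. The sign turned for Pparg (-0.32) and Zfp423 (-0.21) with median centring, for Srebf1 with processed signals (0.016) and in the value table (0.0064), and without replicate 2 for Srebf1 (0.17) and Cebpb (0.11). Without 1 array, Srebf1 ran from -0.27 to 0.17 and Cebpb from -0.45 to 0.11. The cause of these turns was not tested. Median centring moved the share of gene names below 0 to 81.0%, against 51.6% with loess. The signals of Rxra were dim, and its ratio ran from -0.77 to -0.30 over the 14 settings. The -0.30 came from the mean over both probes, and the cause of the range was not tested.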

Other observations

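Markers of other cell types that the depot could hold gave these values. Of 10 brown fat markers 5 were below 0, with array medians of 0.36, -0.66, -0.09 and 0.11, and 0 were past an unadjusted p of 0.05 in limma. Their summed log2 level was 15.77 to 16.91 in Ad/NICD samples and 15.30 to 17.42 in WT samples. The 9 T cell markers measured had array medians of 0.46, 0.44, -0.01 and -0.66. The 12 macrophage markers had array medians of -0.59, 0.42, -0.02 and 0.69, and 3 were past an unadjusted p of 0.05. All 9 mammary epithelium markers measured were below 0, with array medians of -1.02, -1.33, 0.24 and -0.02. Their summed log2 level was 9.61 to 14.98 in Ad/NICD samples and 9.57 to 14.74 in WT samples.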
